A study of Mus musculus with 4 samples.

Results

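The motile cilium axoneme and multiciliation genes were taken from the count table of the developing telencephalon by their symbols. The rule took the dynein heavy chains (Dnah), the axonemal intermediate and light chains (Dnaic1, Dnaic2, Dnal1 and Dnali1), the cilia and flagella associated proteins (Cfap), the radial spoke heads (Rsph), the tektins (Tekt1 to Tekt5), the central apparatus genes Spag6, Spag6l, Spag16, Spag17 and Hydin, and the regulators Foxj1, Mcidas, Gmnc and Ccno. It reads symbols and not values, and found 66 of the 27293 genes in the table. Of the 66, 43 had enough counts to be tested and 23 did not.

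The study asked what loss of STING, an adaptor of the cytosolic DNA sensing pathway, does to the developing cortex. RNA-seq was performed on telencephalic tissue of C57BL/6 mice at embryonic day 13, with 2 libraries labelled WT and 2 libraries from STINGf/f;Nestin-Cre mice, called STINGcKO, each made from 2 µg of total RNA. The labels give no alleles for the WT mice, and the title of WT 2 ends in nes where that of WT 1 ends in wt, so a Nestin-Cre allele in WT 2 cannot be told from the labels. The STINGf/f alleles are deleted where Nestin-Cre is active, that is mainly in neural progenitors and their progeny, so cells of other origin in the tissue keep the gene. The libraries are called WT 1, WT 2, cKO 1 and cKO 2, and nothing in the labels says that they came from separate embryos or litters, so the p-values measure only the spread between these libraries.

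A motile cilium beats through an axoneme of doublet microtubules around a central pair. Outer and inner arm dyneins slide the doublets, radial spokes and the central apparatus set the order in which the dyneins work, and tektins and other inner proteins line the lumen of the doublets. In multiciliated cells Gmnc and Mcidas, which bind E2F factors, start the programme, Ccno serves the amplification of centrioles, and Foxj1 and the RFX factors switch on the genes of the axoneme. In the embryonic forebrain the choroid plexus epithelium is an early site of multiciliation, while ependymal cells acquire their cilia after birth and cortical radial glia carry a single primary cilium.

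Promoter sequences of 4 members are shown because the 4 stand among the lowest log2 fold changes or the lowest counts in STINGcKO described below, and because each holds the letters GTTGCCA or their reverse complement TGGCAAC, the core of the motif bound by RFX factors. RefSeq windows on GRCm38.p6 reach from 250 bases before each gene start to 50 bases after it. They were found for 55 of the 66 members, in 63 windows. The 250 bases before the start are printed 5′ to 3′ on the strand of the gene, with the motif in capitals.
Mcidas, chr13:112993618-112993867, plus strand: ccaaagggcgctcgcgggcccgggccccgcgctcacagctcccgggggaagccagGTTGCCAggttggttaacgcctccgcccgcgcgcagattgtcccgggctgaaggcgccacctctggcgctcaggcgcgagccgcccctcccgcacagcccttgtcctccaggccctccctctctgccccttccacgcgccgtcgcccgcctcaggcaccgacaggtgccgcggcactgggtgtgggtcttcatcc
Ccno, chr13:112987552-112987801, plus strand: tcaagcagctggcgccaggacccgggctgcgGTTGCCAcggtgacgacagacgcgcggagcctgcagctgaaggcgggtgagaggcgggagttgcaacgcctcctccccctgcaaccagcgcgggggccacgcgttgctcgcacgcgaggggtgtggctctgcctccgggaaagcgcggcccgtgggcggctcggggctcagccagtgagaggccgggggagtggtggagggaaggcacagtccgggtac
Cfap44, chr16:44394549-44394798, plus strand: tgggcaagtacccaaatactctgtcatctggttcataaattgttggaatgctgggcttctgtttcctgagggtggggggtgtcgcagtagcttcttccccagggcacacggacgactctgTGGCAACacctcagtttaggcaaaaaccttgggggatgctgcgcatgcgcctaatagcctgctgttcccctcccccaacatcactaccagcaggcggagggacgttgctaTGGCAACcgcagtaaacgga
Cfap161, chr7:83794840-83795089, minus strand: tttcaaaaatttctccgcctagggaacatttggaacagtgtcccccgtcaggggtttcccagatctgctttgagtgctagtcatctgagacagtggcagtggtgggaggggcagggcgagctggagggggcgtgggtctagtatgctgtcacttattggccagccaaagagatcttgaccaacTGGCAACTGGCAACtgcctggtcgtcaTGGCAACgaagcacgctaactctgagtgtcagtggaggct
The first base of the motif lay 195 bases before the start of Mcidas and 219 bases before that of Ccno. Cfap44 held it at 130 and 20 bases, and Cfap161 at 67, 60 and 40 bases. Read on both strands, GTTGCCA stood in 12 of the 63 member windows (19.05%), at 11 genes, and in 1439 of all 32851 RefSeq windows (4.38%). The other 7 genes were Cfap20, Cfap58, Cfap74, Dnah10, Dnah7b, Hydin and Tekt1. The forkhead letters GTAAACA, which do not overlap with GTTGCCA, stood in 3 of the 63 member windows (4.76%), at Cfap20, Cfap43 and Dnah17, and in 1199 of all windows (3.65%). A match describes the letters only, and not a bound site.

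The counts on genes summed to between 17209654 and 18533391 per library, so that 3 counts, the limit that a count of 0 allows, corresponded to between 0.162 and 0.174 CPM (counts scaled to a library total of 1000000). The STING gene, listed as Tmem173, had 20, 19, 18 and 22 counts in WT 1, WT 2 and the STINGcKO libraries, a log2 fold change of 0.02 (SE 0.45), and whether the deleted part lies in the counted exons was not analysed here. The libraries of a group stood apart in 2 ways, and whether either bears on the values of the members was not tested. WT 2 had 0 counts over 4 Y-linked genes (Uty, Kdm5d, Ddx3y and Eif2s3y), which gave 2735 counts in WT 1, 3002 in cKO 1 and 1848 in cKO 2. WT 1 had more counts of markers of tissues that border the cortex. The 16 choroid plexus markers of the table summed to 1844 counts in WT 1 and 445 in WT 2, beside 414 in cKO 1 and 356 in cKO 2, and all 16 were highest in WT 1. Where 4 values stand in a row, here and below, their order is WT 1, WT 2, cKO 1, cKO 2. The 14 meninges and mesenchyme markers gave 6168, 1571, 2105 and 1254, and the 14 cortical hem markers 2428, 971, 1229 and 1072. Cortical radial glia markers differed less (49014, 49454, 53649 and 52421), with none of the 10 genes at 0 in any library. Values without WT 1 are therefore given for the groups of members and beside the values that it changed most.

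Per kilobase of exon, the members lay mostly at a low level. The median of their means over the 4 libraries was 0.215 CPM per kb, and 16 of the 66 reached 1 CPM per kb. Cfap36 stood highest, at 18.3 CPM per kb, followed by Cfap20, an inner junction protein of the doublets, at 15.7 CPM per kb. Their levels per library ran from 18 to 18.8 and from 15.1 to 16.4 CPM per kb, so that the first 2 places did not overlap. Foxj1 (6.63), the outer arm light chain gene Dnal1 (6.32) and Rsph9 (4.65 CPM per kb) came next, and their ranges over the libraries overlapped. The genes of the dynein heavy chains were low on this scale, with Dnah1 the highest at 1.06 CPM per kb and Dnah12 the lowest at 0.00121, from 1 count in all libraries together.

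**Figure D1:**
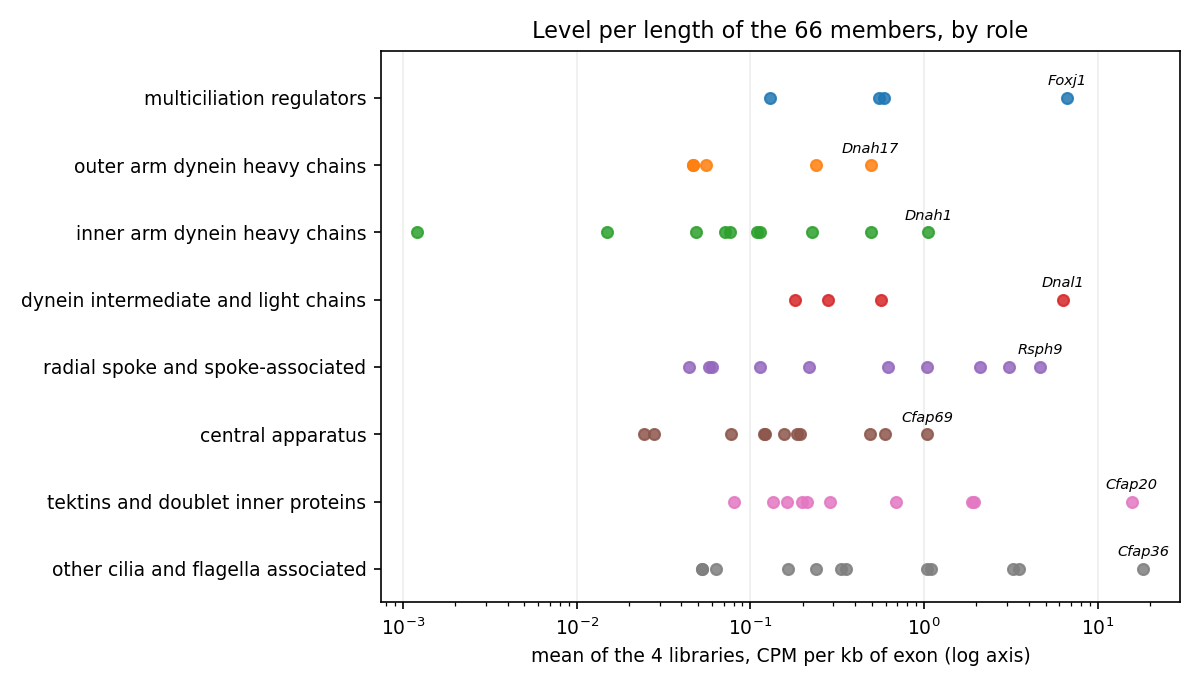
Level of each of the 66 members as the mean CPM of the 4 libraries per kilobase of exon, on a logarithmic horizontal axis, with 1 row per role and 1 point per gene. The highest gene of each role is named: Cfap36 and Cfap20 exceed 15 CPM per kb, while the outer arm dynein heavy chains all lie under 0.5.

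Set against WT, the members as a group showed a shift to lower values in STINGcKO that was not seen without WT 1. By the sign of the log2 fold change, 34 of the 43 members tested were lower in STINGcKO and 9 higher, with a median of -0.28 beside -0.01 over all 16145 genes tested. Without WT 1 the median was 0.04, and 19 of the 43 were lower. At the thresholds of the study (at least a 2-fold change together with an unadjusted p no higher than 0.05), 2 members were called lower, Cfap70 and Dnah10, where 0.669% of all genes tested were called lower. Cfap70 had an unadjusted p of 0.044 and Dnah10 of 0.048 (edgeR quasi-likelihood test), both just under the limit. No member was called higher, where 0.142% of all genes were. After Benjamini-Hochberg adjustment of edgeR's quasi-likelihood test, 0 members and 0.0% of all genes passed an adjusted p of 0.05. The lowest adjusted p of any gene in this edgeR fit was 0.9999, and DESeq2 gave 0 members as well. An unadjusted p under 0.05 was found for 2 of the 43 members tested and for 199 of all 16145 genes tested.

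Cfap70 (ENSMUSG00000039543, chr14:20394193-20452226, minus strand, GRCm38) had 26 counts in WT 1 and 12 in WT 2, beside 9 in cKO 1 and 3 in cKO 2. The groups did not overlap, though 12 and 9 counts are close. Its level was 1.08 ± 0.610 CPM in WT and 0.330 ± 0.232 CPM in STINGcKO (SD, 2 libraries each), a log2 fold change of -1.67 (SE 0.70), and -0.96 without WT 1. Dnah10 (ENSMUSG00000038011, chr5:124725085-124834308, plus strand), which encodes a heavy chain of the two-headed inner arm dynein, had 32, 24, 11 and 15 counts. Both STINGcKO libraries lay below both WT libraries, and the WT libraries were near each other. Its level was 1.58 ± 0.399 CPM in WT and 0.716 ± 0.160 CPM in STINGcKO, a log2 fold change of -1.12 (SE 0.48), and -0.85 without WT 1. Cfap70 was not called with WT 1 or with cKO 2 left out, and Dnah10 was not called in any fit on 3 libraries.

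**Figure D2:**
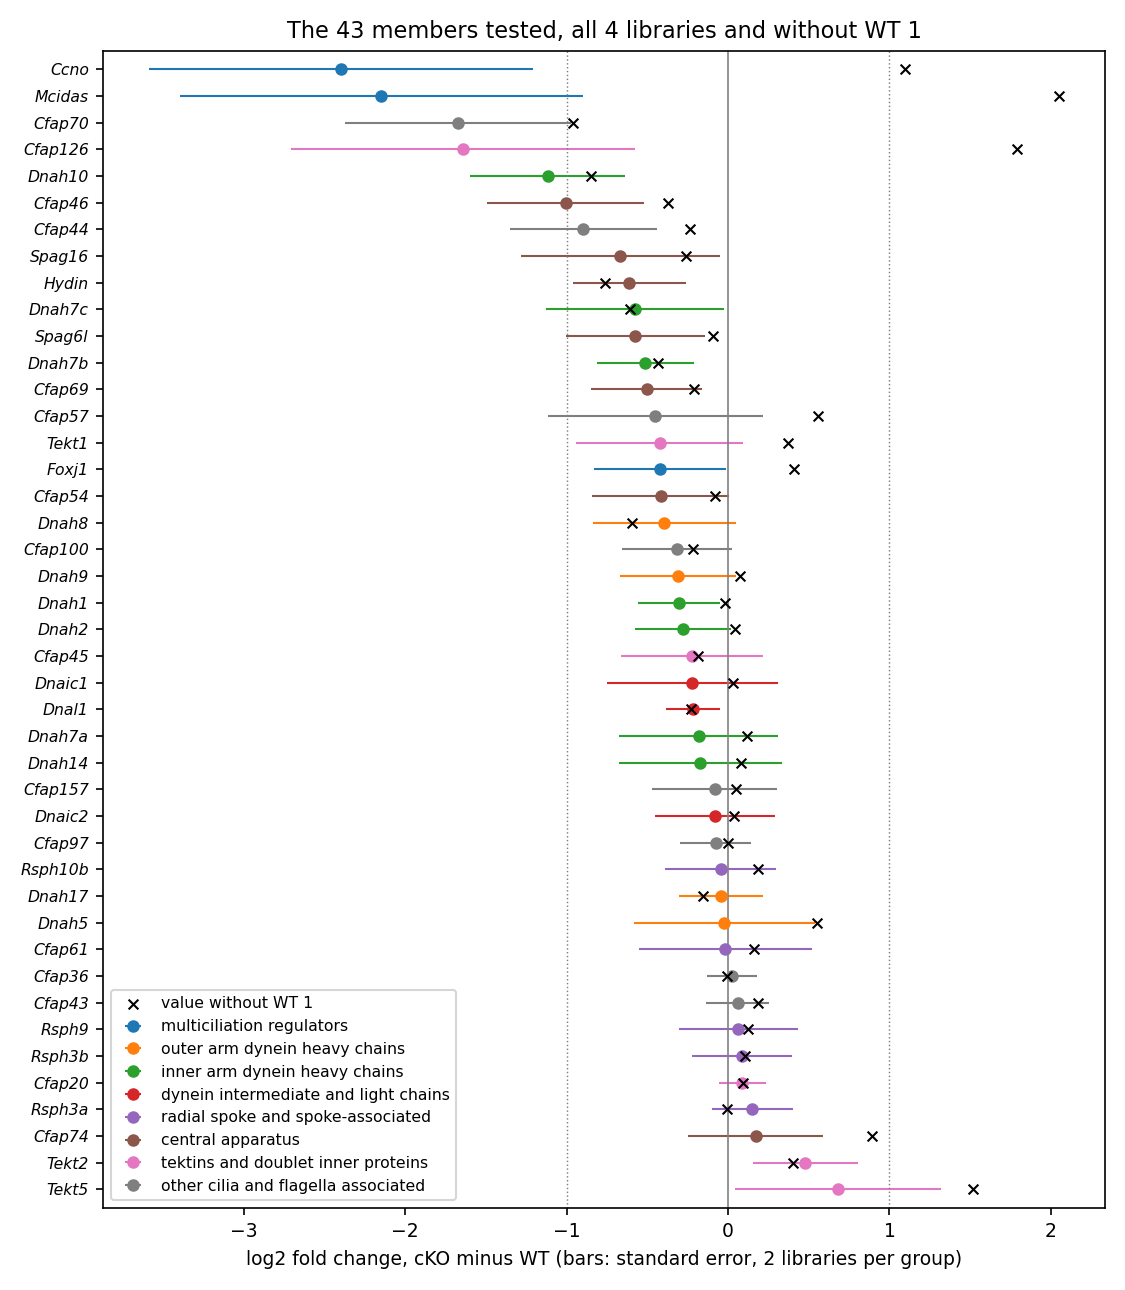
The log2 fold change (STINGcKO minus WT) of the 43 members tested, ordered by value and coloured by role, with bars of 1 standard error. Crosses give the value without WT 1: they move to the right of 0 for Ccno, Mcidas, Cfap126, Foxj1 and Tekt1, and stay to the left for Cfap70, Dnah10 and Hydin.

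The 4 regulators of multiciliation were highest in WT 1 and lower in the other 3 libraries. Mcidas (ENSMUSG00000074651, chr13:112993845-113000394, plus strand), the gene of multicilin, had 72 counts in WT 1 and 2 in WT 2, beside 3 in cKO 1 and 14 in cKO 2. Ccno (ENSMUSG00000042417, chr13:112987802-112990777, plus strand), the gene of cyclin O, lies 3067 bases upstream of it and had 84, 4, 3 and 14 counts. The neighbours were thus alike, with WT 1 far above cKO 2 and both above WT 2 and cKO 1. Between the 2 WT libraries the CPM of Mcidas differed by 38.8 times and that of Ccno by 22.6 times. Cdc20b, a further gene of the deuterosome pathway of centriole amplification and not a member, had 29, 1, 2 and 2 counts, and Deup1, which encodes a protein of the deuterosome itself, had 31, 1, 3 and 4.

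The log2 fold change of Ccno was -2.40 (SE 1.19) with all libraries and 1.10 without WT 1. That of Mcidas was -2.15 (SE 1.25) and turned to 2.05 without WT 1. The sign of both values thus turned when WT 1 was left out, and cKO 2 lay above WT 2 for both. Gmnc (ENSMUSG00000068428, chr16:26957236-26989974, minus strand) had 41, 3, 6 and 2 counts, was not tested with the filter, and differed by 14.7 times between the WT libraries. Foxj1 (ENSMUSG00000034227, chr11:116330704-116335399, minus strand) was by far the most abundant of the 4, with 498, 206, 223 and 313 counts. It was present in every library, with WT 1 highest and WT 2 lowest, so that the groups overlapped. Its level was 20.0 ± 12.6 CPM in WT and 14.8 ± 3.59 CPM in STINGcKO, a log2 fold change of -0.42 (SE 0.41), and 0.41 without WT 1.

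**Figure D3:**
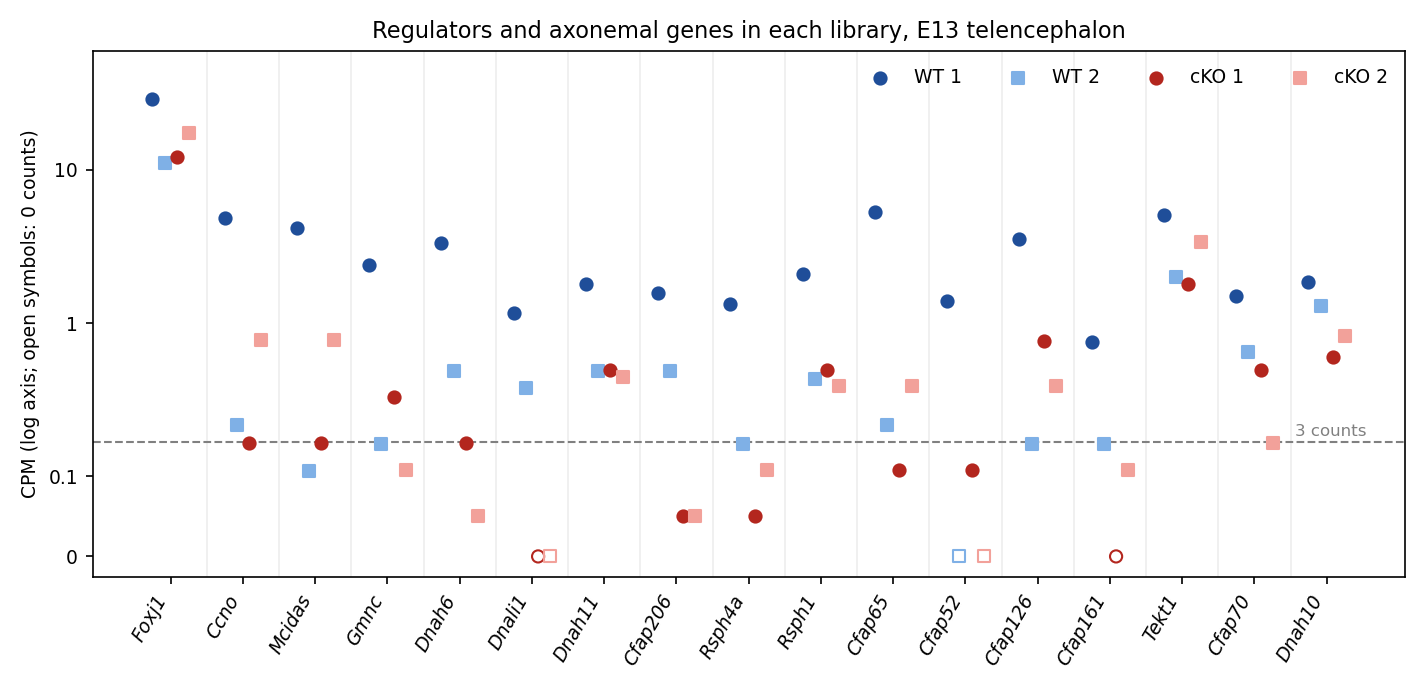
CPM of 17 regulators and axonemal genes in each of the 4 libraries, on a logarithmic axis. Open symbols at the mark labelled 0 stand for 0 counts, and a dashed line lies at 3 counts. WT 1 lies highest for every gene shown, while WT 2 lies among or below the STINGcKO libraries for Foxj1, Mcidas, Gmnc, Rsph1, Cfap65 and Cfap126, among others. The genes were picked for display, and WT 1 was highest for 48 of all 66 members.

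The heavy chains of the outer arm, the outer motors of the doublet, were not called in either direction with the filter on low counts. Dnah9 had 90, 59, 66 and 56 counts, and Dnah5, which pairs with it in the airway and ependyma, had 17, 9, 12 and 14. The groups overlapped for both, and for Dnah9 WT 1 stood out. Dnah17, a heavy chain known from sperm flagella, had 129, 160, 157 and 126 counts and a log2 fold change of -0.04 (SE 0.26). Dnah8, its partner in sperm, had 21, 30, 19 and 20 counts, with a log2 fold change of -0.39 (SE 0.44). Dnah11 had 31 counts in WT 1 against 9, 9 and 8 in the other libraries, was not tested with the filter, and was called lower without it. The median log2 fold change of the 4 outer arm genes tested was -0.18, and -0.04 without WT 1.

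Among the 10 inner arm heavy chains, all 7 tested had a negative log2 fold change and 9 of the 10 were highest in WT 1, while their median of -0.30 became -0.02 without WT 1. Dnah1 had 313, 231, 204 and 243 counts, a log2 fold change of -0.30 (SE 0.25) and -0.02 without WT 1. Dnah2, which joins Dnah10 in the two-headed inner arm, had 169, 119, 112 and 129 counts, with -0.28 (SE 0.30) and 0.05 without WT 1. For both genes WT 2 lay between the STINGcKO libraries, unlike for Dnah10. Dnah7b had 97, 92, 72 and 62 counts, so that the groups did not overlap, with a log2 fold change of -0.51 (SE 0.30). Its copies Dnah7a (32, 23, 17 and 32 counts) and Dnah7c (28, 31, 30 and 10) are close copies of it that may have lost or shared reads, so the 3 values are uncertain. Dnah14 had 17, 13, 15 and 12 counts, with -0.17 (SE 0.50) and 0.08 without WT 1.

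Dnah6 (ENSMUSG00000052861, chr6:73017606-73221651, minus strand), a single-headed inner arm heavy chain, had 57 counts in WT 1 and 9 in WT 2, beside 3 in cKO 1 and 1 in cKO 2. Both STINGcKO libraries lay at or under 3 counts, and WT 2 was much nearer to them than to WT 1. The ratio of the pooled WT to the pooled STINGcKO CPM was 16.8. Its exact 95% interval of 6.25 to 63.4 covers counting error only. With WT 2 as the only WT library the ratio was 4.41 (1.23 to 19.6). Such values without WT 1 were computed only for members with at most 3 counts in each STINGcKO library and more than 3 in WT 2. Their intervals are therefore no test. Other members picked in this way were Spag6, at 7.84 (0.776 to 386), Cfap58, at 3.92 (0.562 to 43.3), and Tekt4, at 1.57 (0.311 to 7.29). Of the intermediate and light chains, Dnali1 (ENSMUSG00000042707, chr4:125055338-125065703, minus strand), an inner arm component, had 20 and 7 counts in WT and 0 in both STINGcKO libraries. Its mean WT level was at least 4.66-fold above the level of 3 counts in STINGcKO, and that of WT 2 alone at least 2.29-fold. Dnal1 (814, 876, 798 and 671 counts), Dnaic1 (17, 13, 10 and 16) and Dnaic2 (50, 45, 53 and 38) serve the outer arm. Their log2 fold changes were -0.22 (SE 0.17), -0.22 (SE 0.53) and -0.08 (SE 0.37), none of them called.

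Of the 10 radial spoke and spoke-associated members, 6 were highest in WT 1 and none was called with the filter. The spoke head gene Rsph9 had 132, 129, 90 and 185 counts, and the stalk genes Rsph3a and Rsph3b had 136, 181, 170 and 184 and 111, 115, 95 and 147. The groups overlapped for all 3, with log2 fold changes of 0.06 (SE 0.37), 0.15 (SE 0.25) and 0.09 (SE 0.31), and Rsph3a and Rsph3b are close copies whose reads could be split between them. The spoke head genes Rsph4a, with 23, 3, 1 and 2 counts, and Rsph1, with 36, 8, 9 and 7, were highest in WT 1 and were not tested. Cfap206, a protein at the base of a spoke, had 27 and 9 counts in WT and 1 in each STINGcKO library. For Cfap206 the pooled ratio of WT to STINGcKO was 18.3 (4.71 to 157), and 8.82 (1.83 to 83.9) without WT 1, and for Rsph4a it was 8.81 (2.70 to 45.5) with WT 2 near the STINGcKO libraries. Rsph6a, known from testis, had 0 counts in 3 libraries and 8 in cKO 2. Rsph10b (65, 51, 61 and 53 counts) and Cfap61 (12, 10, 10 and 12) had log2 fold changes of -0.05 (SE 0.35) and -0.02 (SE 0.53), and of 0.19 and 0.16 without WT 1.

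Central apparatus genes had the lowest median log2 fold change of the structural roles, -0.57 over 7 genes tested, and -0.21 without WT 1. Hydin (ENSMUSG00000059854, chr8:110266977-110610253, plus strand), a large protein of the central pair, had 53 counts in WT 1 and 70 in WT 2, beside 40 in cKO 1 and 41 in cKO 2. WT 2 was its highest library, and the groups did not overlap. Its level was 3.43 ± 0.493 CPM in WT and 2.23 ± 0.0516 CPM in STINGcKO, a log2 fold change of -0.61 (SE 0.35), and -0.76 without WT 1. Cfap46 had 54, 27, 21 and 20 counts and a log2 fold change of -1.005 (SE 0.49), and -0.37 without WT 1. Cfap69 had 199, 145, 159 and 88 counts, and Cfap74 had 111, 51, 85 and 101. The groups overlapped for both, with log2 fold changes of -0.50 (SE 0.34) and 0.17 (SE 0.42), which were -0.21 and 0.89 without WT 1. Cfap65 had 91, 4, 2 and 7 counts, and 24.5 times as many CPM in WT 1 as in WT 2. Of the other genes of this role, Cfap54 had 42, 29, 30 and 24 counts, Spag6l had 73, 43, 32 and 47 and Spag16 had 22, 14, 17 and 6. Their log2 fold changes lay between -0.67 and -0.42, and between -0.26 and -0.08 without WT 1, none was called, and Spag6l shares sequence with Spag6, so that reads could be split between them.

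Tektins and other proteins inside the doublets held the 2 genes with the highest log2 fold changes, Tekt5 and Tekt2. Tekt2 (ENSMUSG00000028845, chr4:126322121-126325688, minus strand) had 51 counts in WT 1 and 60 in WT 2, beside 70 in cKO 1 and 86 in cKO 2. Both STINGcKO libraries lay above both WT libraries, with a log2 fold change of 0.48 (SE 0.33). An opposite-strand transcript, Gm12945, covers 20.8% of its exon bases, and the strand used in counting is not given in the sources used here. Tekt5 had 10, 4, 12 and 11 counts and a log2 fold change of 0.68 (SE 0.64), and Cfap20 had 1182, 1246, 1285 and 1320, with 0.09 (SE 0.15). Tekt1 was highest in WT 1 and next in cKO 2, as Foxj1 was, with 87, 37, 33 and 61 counts, and its log2 fold change of -0.42 (SE 0.52) became 0.37 without WT 1. Cfap126, also called Flattop, had 61, 3, 14 and 7 counts, with a log2 fold change of -1.64 (SE 1.06) and 1.79 without WT 1. Cfap52 had 24, 0, 2 and 0 counts and Cfap161 13, 3, 0 and 2, and neither was tested. Cfap53 (19, 6, 5 and 9 counts) and Tekt4 (10, 4, 2 and 3) were likewise highest in WT 1 and not tested, while Cfap45 had 22, 22, 18 and 20 counts and a log2 fold change of -0.22 (SE 0.44).

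The remaining Cfap genes included Cfap36, the highest member per kilobase. Cfap36 had 850, 938, 939 and 897 counts, Cfap97 had 341, 325, 372 and 268, and Cfap43 had 426, 381, 401 and 450. The groups overlapped for all 3, and their log2 fold changes were 0.02 (SE 0.15), -0.08 (SE 0.22) and 0.06 (SE 0.19). Cfap44, which tethers the two-headed inner arm dynein together with Cfap43, had 92, 45, 44 and 31 counts. WT 2 and cKO 1 were level, and its log2 fold change of -0.90 (SE 0.46) became -0.24 without WT 1. Cfap100 had 93, 86, 57 and 88 counts, Cfap157 had 36, 32, 33 and 32, and Cfap57 had 29, 10, 9 and 20. None of these 3 was called, with log2 fold changes of -0.32 (SE 0.34), -0.08 (SE 0.39) and -0.45 (SE 0.67). Without WT 1 they were -0.22, 0.05 and 0.56, so that Cfap157 and Cfap57 changed sign.

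Split by mean count over the 4 libraries, the 13 members with at least 100 counts summed to 308, 273, 274 and 278 CPM. Their log2 fold changes ran from -0.50 to 0.15. The 53 members under 100 counts summed to 112, 56.5, 52.9 and 57.6 CPM. WT 1 thus held about as much again of the low members as any other library, while WT 2 lay between the STINGcKO libraries.

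**Figure D4:**
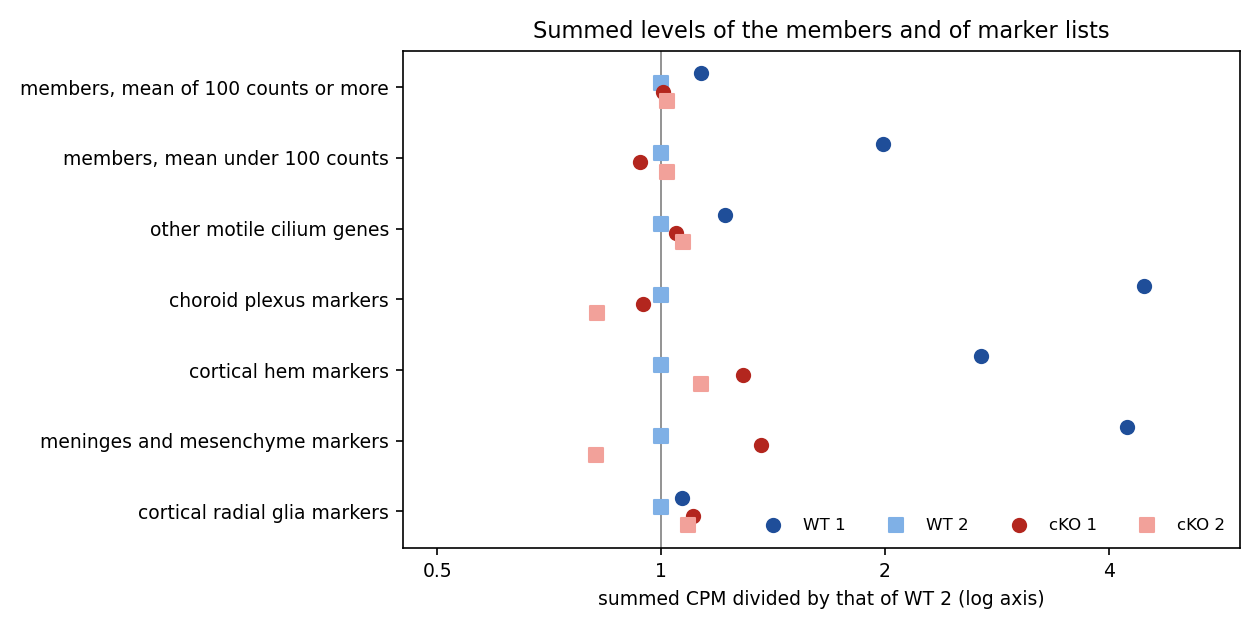
Summed CPM of the members in 2 classes of abundance, of other motile cilium genes and of marker lists in each library, divided by the sum in WT 2, on a logarithmic axis. WT 1 stands to the right for the low members, the choroid plexus, the cortical hem and the meninges lists, and near the other libraries for the abundant members and the radial glia list.

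The place of WT 1 could be counted over all members. WT 1 was the highest of the 4 libraries for 29 of the 43 members tested, where 27.3% of all genes tested had it highest, and for 48 of all 66. Among the 55 members with at least 10 counts in either WT library, WT 1 was at least 2-fold above WT 2 for 24, beside 6.18% of all such genes, and WT 2 was never 2-fold above WT 1, beside 2.11% of all genes. Between the STINGcKO libraries, 2 of 42 members were at least 2-fold higher in cKO 1 (Spag16 and Dnah7c), beside 6.96% of all genes, and 4 of 42 were so in cKO 2 (Ccno, Mcidas, Cfap57 and Rsph9), beside 3.16%. WT 2 was at least 2-fold above the mean of the STINGcKO libraries for 0 of 43 members with at least 10 counts in 1 of these 3 libraries, where 1.8% of all such genes were. Dnah6, Cfap206 and Dnali1, described above, fell under this minimum. The mean of the STINGcKO libraries was at least 2-fold above WT 2 for 4 of the 43 (Ccno, Mcidas, Cfap126 and Tekt5), where 2.46% of all such genes were.

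Both STINGcKO libraries lay below both WT libraries for 9 of the 43 members tested (Cfap46, Hydin, Dnal1, Dnah10, Dnah7b, Cfap44, Cfap70, Dnah8 and Cfap45), where 11.2% of all genes tested did. They lay above both for 3 (Cfap20, Tekt2 and Tekt5), where 10.4% of all genes did. Without the filter on low counts, 15 members were called lower, where 1.22% of 27293 genes were, and 1 was called higher, Rsph6a, where 0.264% were. All 15 were highest in WT 1, as were 82.6% of the 333 genes called lower in that fit. The groups did not overlap for 7 of the 15 and for 59.5% of the 333, and 10 of the 15 were not tested with the filter. An adjusted p under 0.05 was reached by 6 members in that fit, where 0.238% of all genes reached it. The 6 were Dnah6, Dnali1, Cfap206, Cfap65, Ccno and Mcidas, and WT 1 was highest for each. The log2 fold change from this fit was -3.997 for Dnah6 (adjusted p = 2.48e-05, the edgeR quasi-likelihood fit with Benjamini-Hochberg correction). For Cfap65 it was -3.40 (adjusted p = 5.56e-06), although WT 2 had 4 counts of Cfap65 and cKO 2 had 7. At nearly the same log2 fold changes, the SE of Ccno was 0.52 in this fit and 1.19 with the filter. That of Mcidas was 0.54 and 1.25. The p-values of this fit thus give little weight to the spread between the WT libraries of such genes.

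Of 70 other motile cilium genes, listed without any member, 64 were found, and 47 of the 64 were highest in WT 1. Of these 64, 40 were tested, 31 with a negative log2 fold change, and the median was -0.16, or 0.09 without WT 1. With the filter 6 were called lower, Efhc2, Ak7, Ccdc65, Ropn1l, Ccdc114 and Ccdc103, and none higher. Of all genes tested, 0.669% were called lower and 0.142% higher. Ccdc65, a subunit of the nexin-dynein regulatory complex that links neighbouring doublets, had 21, 20, 5 and 9 counts. Here the WT libraries were level and both STINGcKO libraries lay well below them, with a log2 fold change of -1.55 (SE 0.55), and -1.47 without WT 1. Efhc2, an inner protein of the doublets, had 18, 11, 4 and 2 counts, with -2.25 (SE 0.69), and -1.81 without WT 1. Ropn1l, a radial spoke protein, had 21, 16, 9 and 5 counts, with -1.41 (SE 0.56), and -1.15 without WT 1. The values without WT 1 rest on WT 2 as the only WT library, so they give sizes only and carry no call.

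In the other 3 genes the size of the difference shrank more when WT 1 was left out. Ak7, an adenylate kinase of cilia, had 63, 20, 13 and 7 counts and a log2 fold change of -2.07 (SE 0.67), and -0.97 without WT 1. Ccdc114, which docks the outer arm, had 92, 37, 27 and 30 counts, with -1.20 (SE 0.51), and -0.35 without WT 1. Ccdc103, needed for dynein arm attachment, had 36, 22, 15 and 11 counts, with -1.17 (SE 0.50), and -0.73 without WT 1. The RFX genes themselves were well expressed. Rfx3 had 1036, 858, 994 and 574 counts and Rfx2 had 258, 230, 257 and 291, with log2 fold changes of -0.30 (SE 0.26) and 0.15 (SE 0.22).

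Like the low members, the lists of tissues beside the cortex had their highest sums in WT 1. Over WT 2, cKO 1 and cKO 2 the order was not shared, with the low members at 56.5, 52.9 and 57.6 CPM. Meninges markers stood there at 84.8, 115 and 69.3 CPM, and cortical hem markers at 52.4, 67.4 and 59.3 CPM. Choroid plexus markers stood at 107, 24.0, 22.7 and 19.7 CPM, 5 of the 7 tested were called lower, and Folr1 was at 0 in WT 2 and Kcnj13 at 0 in cKO 2. Ttr and Clic6, which define this epithelium, are named only in a second table that holds cKO 1 and WT 1, so no values of WT 2 and cKO 2 were read for them. There Ttr had 5071 counts in WT 1 and 23 in cKO 1, and Clic6 had 526 and 2. Of the meninges markers 2 of 10 tested were called lower (Col1a1 and Col1a2), and of the cortical hem markers 0 of 13. The share of all genes tested that were called lower was 0.669%. Without the filter the genes called lower numbered 9 of 16 choroid plexus, 9 of 14 meninges and 6 of 14 cortical hem markers. In that fit 1.22% of all genes were called lower. No gene was called in either fit in the lists of blood (18996, 10911, 8731 and 13027 counts), endothelium (3865, 3215, 2767 and 2742), radial glia, intermediate progenitors and neurons (87363, 108682, 102219 and 88841) or ventral telencephalon (17596, 17894, 11811 and 17805). The part of these tissues in the values of the members was not tested, and in bulk tissue fewer cells of a type and less RNA per cell cannot be told apart.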

How the data were processed

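The authors deposited counts of reads per gene for 4 libraries, made per the labels with Bowtie2 2.2.3, TopHat2 2.0.12 and HTSeq 0.6.0. The build named is mm9, but the deposited gene ends lay within 1 base of GENCODE M21 (GRCm38) for 97.2% of 27232 genes, so positions were read as GRCm38. A blank gene name (11 rows, 0.0403%) was left out. A second table of 2 libraries holds the same counts for 21342 shared genes, and 2 per-sample columns of scaled values were not used. It names 11 further genes, Ttr and Clic6 among them, and whether the 11 blank rows are these genes was not examined. Columns of fold changes and p-values from the authors' comparison were not used.

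Counts were fitted over all genes with edgeR 4.0.16 (R 4.3.3, TMM, filterByExpr, quasi-likelihood test), and with DESeq2 1.42.0 as an alternative. Calls used the thresholds of the study, at least a 2-fold change with p no higher than 0.05, not adjusted unless stated. CPM is the count scaled to a total of 1000000 counts on genes. Levels per kb used the union of exons. Pooled ratios carry exact Clopper-Pearson intervals (scipy 1.17.1) for counting error only. The fit was tested on simulated data.

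The members, roles and gene lists were chosen with earlier results of these data known. Dnah6, Dnali1 and Cfap65 had been listed by the study from these libraries. The study also measured these 3 genes by qPCR in WT and STINGcKO at embryonic day 13. None of them reached a p under 0.05 in its unpaired t-test. Full statistics were given for called members, the regulators, these 3 genes, the 3 most abundant genes of each role and the 5 highest and 5 lowest log2 fold changes, and counts for any other member. The non-members Cdc20b, Deup1, Rfx2 and Rfx3 were named after their values were seen.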

Additional observations from a re-analysis of the deposited data

How the results depend on the processing

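The count of 2 members called lower did not change with RLE or upper-quartile normalization. It was 15 when every gene with a count was kept, 1 among genes of 10 counts or more in every library and 1 with DESeq2 (Ccno). At an unadjusted p of at most 0.01 it was 0. The share of all genes called was computed only for the main fit and for the fit with no filter. For the other settings the members cannot be set against all genes. The count called higher, 0, became 1 with no filter. Members at an adjusted p under 0.05 numbered 0, but 6 with no filter and from 0 to 3 with a library left out, the 3 without WT 2. The median log2 fold change of -0.28 ran from -0.43 to 0.040 with a library left out, and was 0.040 without WT 1. For the other motile cilium genes the 6 called lower became 17 with no filter and 2 among genes of 10 counts or more in every library. The number was 1 with DESeq2 and 0 at p of at most 0.01. The filter and the stricter p change the number of genes that can be called, but this does not cover the whole rise with no filter. Ccno, Mcidas and Cfap126 were tested in both fits and called only with no filter. Their SE was 1.19, 1.25 and 1.06 with the filter and 0.52, 0.54 and 0.54 without it. The cause of the other changes was not tested.

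Same-numbered libraries were not shown to be paired (their deviations correlated with a coefficient of 0.108 over 16145 genes, in 2 pairs). With the replicate block 1 member was called lower (Cfap70), 7 other motile cilium genes were, and Rsph9 turned to -0.016.

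Of 163 values of 28 named members with all libraries kept, 1 changed sign, and of 112 with a library left out 22 did, 12 of them without WT 1. Over all 43 members tested, 35 of 172 values with a library left out changed sign, in 25 members, and 19 of the 35 did so without WT 1. With 1 library missing, the values spanned -3.87 to 1.10 for Ccno, from -3.62 to 2.05 for Mcidas, from -2.58 to 1.79 for Cfap126, from -0.94 to 0.41 for Foxj1, from -0.94 to 0.37 for Tekt1, from -0.30 to 0.89 for Cfap74, from -0.61 to 0.073 for Dnah9, from -0.54 to 0.045 for Dnah2, from -0.60 to 0.091 for Dnaic1, from -0.32 to 0.14 for Dnaic2, from -0.19 to 0.10 for Dnah17, from -0.31 to 0.14 for Cfap97, from -0.050 to 0.19 for Cfap43, from -0.0051 to 0.062 for Cfap36, from -0.0053 to 0.33 for Rsph3a, from -0.27 to 0.38 for Rsph3b and from -0.56 to 0.50 for Rsph9. A library left alone in its group was assumed to vary like the pair of the other group. Levels by a deposited gene length were not run, since the deposited table gives none. The precision was limited by 2 libraries per group and by a mean under 100 counts in 53 of the 66 members.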

Other observations

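Of the 23 members below the filter, 11 had fewer than 10 counts in every library. In the order WT 1, WT 2, cKO 1, cKO 2, Dnah12 had 1, 0, 0 and 0 counts, Dnah3 had 8, 1, 2 and 4 and Spag6 had 1, 4, 1 and 0. Spag17 had 6, 4, 5 and 2 and Cfap221 had 6, 2, 2 and 6. Cfap58 had 7, 4, 2 and 0, Cfap73 had 6, 8, 2 and 6, Cfap77 had 3, 4, 4 and 1, and Cfap99 had 3, 1, 1 and 3. Rsph14 had 5, 4, 0 and 4, and Rsph6a, given above, was listed in cKO 2 alone.

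Ciliary genes outside the member list included Wdr63, the gene of a dynein intermediate chain, with 32, 1, 0 and 0 counts, and Dynlrb2, a dynein light chain gene, with 30, 0, 2 and 0. Nearly all their counts came from WT 1. Both were named after their values were seen, and neither was tested.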
